A study of Mus musculus with 12 samples.

Results

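miR-22 is a single-locus mouse microRNA, and both strands of its hairpin were measured here: mmu-miR-22-3p, the abundant strand, and mmu-miR-22-5p, the scarce one. The members were taken by name from the count tables, so that 2 of the 1915 mature names listed were chosen, each with 1 precursor and a value in all 12 libraries. Small RNA was sequenced from mouse striatum, with 3 libraries in each of 4 groups. Wild-type mice of strain B6CBAFI/J (WT) and R6/2 mice, labelled B6CBA-Tg(HDexon1)62Gpb/3J, were compared. R6/2 mice carry exon 1 of the human huntingtin gene with an expanded repeat and are a widely used model of Huntington's disease. All mice, controls included, had received an adeno-associated virus (AAV) in the striatum of both sides at 5 weeks of age, and the tissue was taken at 10.5 weeks. In each genotype the virus delivered a control construct to one group and a hairpin that knocks down TRAX (shTRAX) to the other, and no uninjected group was analysed here.

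A microRNA hairpin is cut into a 5p and a 3p strand, of which one is usually retained in an Argonaute protein and then pairs with mRNAs through its seed, bases 2 to 8. miR-22-3p is expressed widely, including in brain, and raising miR-22 was reported to protect neurons in cell models of Huntington's disease, with the histone deacetylase gene Hdac4, the REST corepressor gene Rcor1 and the signalling regulator gene Rgs2 among its reported targets. TRAX and its partner translin form the ribonuclease C3PO, which is known for removing fragments of the discarded strand during Argonaute loading. Here the groups were compared between R6/2 and WT mice and between shTRAX and control AAV. The comparisons that the authors deposited are those of shTRAX with control AAV within each genotype. TRAX mRNA, encoded by Tsnax, and the mRNA targets of miR-22 were not measured in these libraries, so the knockdown could not be checked here.

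The mature sequences and the hairpin are shown because the strand ratio and the seed comparison below rest on them (RefSeq, build GRCm38.p6). Capitals mark the seeds in the mature sequences and both mature strands in the hairpin.
mmu-miR-22-5p: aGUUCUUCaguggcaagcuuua
mmu-miR-22-3p: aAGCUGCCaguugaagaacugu
miR-22 hairpin: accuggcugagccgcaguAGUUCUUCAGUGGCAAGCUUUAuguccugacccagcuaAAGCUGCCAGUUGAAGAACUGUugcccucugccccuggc
The hairpin occupies chr11:75463716-75463810 on the plus strand, 95 bases, with the 5p strand at chr11:75463734-75463755 and the 3p strand at chr11:75463772-75463793. It lies within exon 2 of the noncoding host gene Mir22hg (chr11:75461539-75466676, GENCODE M21). Among 1679 mouse mature sequences, none shared bases 2 to 8 with either strand, and names without an entry there were not searched. Bases 2 to 7 of the 5p strand recur in miR-6935-3p and miR-7092-3p, which had 7 and 46 counts over all 12 libraries and were too low to test.

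The promoter of Mir22hg is shown because its transcript is the source of both strands (RefSeq, GRCm38.p6, chr11:75461289-75461588, plus strand). Capitals mark matches to the motifs searched.
Mir22hg promoter: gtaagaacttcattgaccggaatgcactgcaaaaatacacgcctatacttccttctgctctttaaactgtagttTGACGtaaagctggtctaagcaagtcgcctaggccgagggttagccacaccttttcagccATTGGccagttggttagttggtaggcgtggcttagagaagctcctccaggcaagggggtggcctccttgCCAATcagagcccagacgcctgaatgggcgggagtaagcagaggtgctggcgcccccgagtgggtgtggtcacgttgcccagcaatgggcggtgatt
The core of the cyclic AMP response element (TGACG, or CGTCA on the other strand) occurred 1 time, 176 bases before the annotated start, and 20.8% of 32851 promoters of this length hold it. The CCAAT box (CCAAT or ATTGG) occurred 2 times, 116 and 47 bases before the start, and 37.4% of promoters hold one. The E-box CACGTG, held by 7.15% of promoters, and the TATA box TATAAA (or TTTATA), held by 13.6%, were not in this window. No 2 of these matches overlap, and they are descriptions of letters only.

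The level of miR-22-3p was lower in every R6/2 library than in any WT library. Levels are given as CPM (a library's counts scaled to a common total) adjusted by the trimmed mean of M values (TMM). In WT mice with control AAV the 3 libraries held 1128, 1086 and 1140 CPM of miR-22-3p. In WT mice with shTRAX they held 1152, 909.2 and 972.2 CPM. In R6/2 mice with control AAV they held 774.5, 713.5 and 642.4 CPM.

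The R6/2 shTRAX libraries were the lowest as a group, with 658.2, 675.4 and 562.9 CPM of miR-22-3p. These levels came from 7262 to 19569 raw counts per library, a counting error of 0.715% to 1.17%. By level, miR-22-3p stood between rank 87 and rank 92 of all mature names in the WT control libraries, and between rank 106 and rank 112 in the R6/2 shTRAX libraries. The group means in descending order were 1118 ± 28.4 CPM in WT control, 1011 ± 126 in WT shTRAX, 710.1 ± 66.1 in R6/2 control and 632.2 ± 60.6 in R6/2 shTRAX (SD, n = 3 each).

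The first and second groups in that order overlapped, since WT shTRAX replicate 1 was above every WT control library. The last 2 also overlapped. Only between the WT and the R6/2 groups was there a gap, from 774.5 to 909.2 CPM.

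miR-22-5p had 224 to 967 raw counts per library and a counting error of 3.22% to 6.68%, larger than that of the other strand. It held 55.7, 54.5 and 59.0 CPM in WT control and 54.8, 45.5 and 50.3 CPM in WT shTRAX. It held 47.4, 37.0 and 38.3 CPM in R6/2 control, and 35.2, 34.8 and 17.4 CPM in R6/2 shTRAX. R6/2 shTRAX replicate 3, at 17.4 CPM, stood well below the other 2 libraries of its group.

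The order of the group means of miR-22-5p was the same as for the 3p strand: 56.4 ± 2.32, 50.2 ± 4.65, 40.9 ± 5.64 and 29.1 ± 10.2 CPM (SD, n = 3 each). Neighbours overlapped between the WT groups and between WT shTRAX and R6/2 control, where R6/2 control replicate 1 (47.4 CPM) was above WT shTRAX replicate 2 (45.5 CPM). The R6/2 shTRAX libraries were all below the R6/2 control libraries, as were those of 16.4% of the 689 microRNAs tested.

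**Figure D1:**
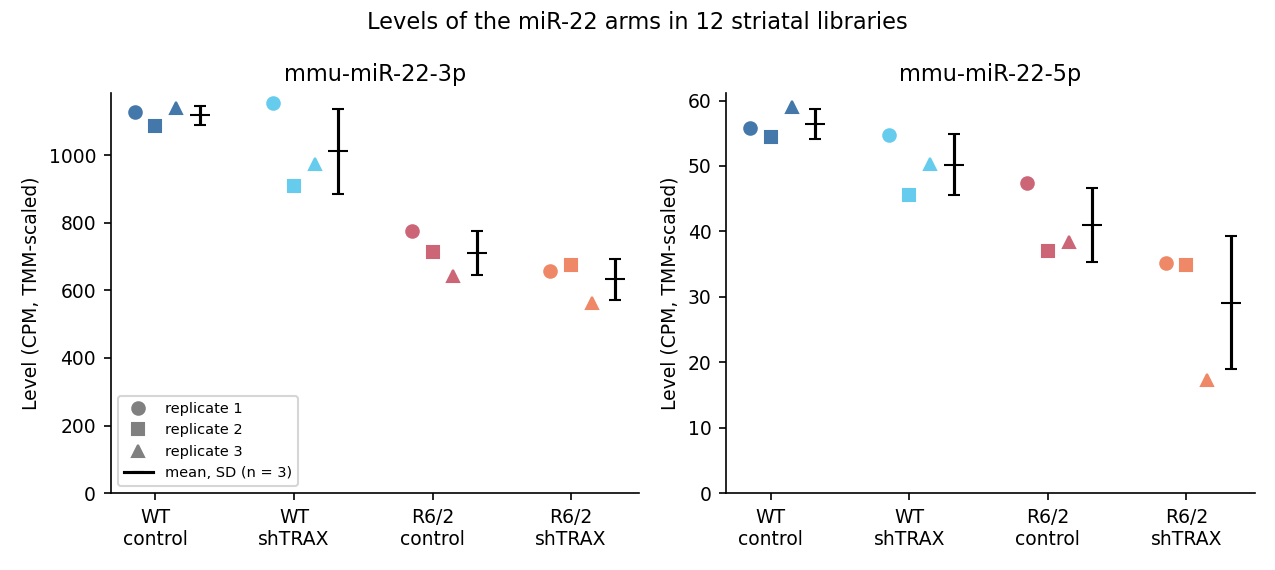
Level of each miR-22 strand in every library, in CPM with TMM scaling on axes from 0; symbols mark replicates, and the horizontal line and bar give the group mean and SD (n = 3). All R6/2 values of miR-22-3p lie at or below 774.5 CPM and all WT values at or above 909.2 CPM, whereas miR-22-5p overlaps between R6/2 control and WT shTRAX and has its lowest value, 17.4 CPM, in R6/2 shTRAX replicate 3.

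The kept counts summed to 13849777 to 16907910 per library, and 689 microRNAs were abundant enough to test over the 12 libraries. Whether replicates are separate animals is not stated in the labels, and the p-values therefore measure only how far these samples scatter, which may be technical. The labels name neither the AAV serotype nor the promoter of its construct. In such bulk tissue, fewer cells of a type and less RNA per cell cannot be told apart. One library, R6/2 shTRAX replicate 3, stood apart: the correlation across 564 microRNAs between the guanine and cytosine (GC) content of a microRNA and its deviation in that library was 0.61 (Spearman's rho), against -0.36 to 0.09 in the other 11. Several results that rest on it are given with and without it.

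miR-22-3p was lower in R6/2 striatum under either virus, at 62.5% to 63.5% of its WT level. Under control AAV the R6/2 level was 63.5% of the WT level, a log2 difference of -0.65 ± 0.13 (SE; adjusted p = 0.00605, edgeR quasi-likelihood test with Benjamini-Hochberg adjustment over all 689 microRNAs). Under shTRAX AAV it was 62.5%, a log2 difference of -0.68 ± 0.13 (edgeR, adjusted p = 0.00843), and that call was lost when only the 6 compared libraries were fitted (-0.69, adjusted p = 0.165). Without R6/2 shTRAX replicate 3 the difference under shTRAX AAV was -0.60 (edgeR, adjusted p = 0.0031). Averaged over both viruses the R6/2 level was 63.0% of the WT level, a log2 difference of -0.67 ± 0.090 (edgeR, adjusted p = 0.000403), while the median microRNA differed by 0.05.

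The drop of miR-22-3p was one of a minority. At an adjusted p under 0.05, 3.34% of the microRNAs tested were called lower in R6/2 under control AAV, 5.81% under shTRAX AAV and 9.43% in the average. In full, 50 were called higher and 23 lower under control AAV, 55 and 40 under shTRAX AAV, and 93 and 65 in the average. With scaling to the total count these splits were 44 and 39, 35 and 45, and 79 and 84, and with upper quartile scaling 57 and 15, 70 and 26, and 118 and 45. The counts also moved with single libraries: without R6/2 shTRAX replicate 3, 210 were called under control AAV in place of 73, and 255 in the average in place of 158.

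By size, the averaged change of miR-22-3p was the 50th lowest of 689, and by p-value it stood at rank 20. All 6 R6/2 libraries were below all 6 WT libraries for 4.93% of the microRNAs tested, miR-22-3p among them. Within one virus, the same separation of 3 against 3 held for 21.6% of microRNAs under control AAV and 12.8% under shTRAX AAV. On the miR-22-3p level alone, an exact two-sided permutation test gave p = 0.1 under each virus, the smallest that 3 against 3 allows, and p = 0.005 when labels were exchanged within each virus, the smallest that its 400 arrangements allow.

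miR-22-5p was lower in the average as well, with less precision. Under control AAV the R6/2 level was 72.6% of the WT level, a log2 difference of -0.46 ± 0.23, which did not pass the test (edgeR, adjusted p = 0.248). That call turned on R6/2 shTRAX replicate 3, which shares the estimate of spread: without it the difference was -0.45 (edgeR, adjusted p = 0.00708), and in the 6 compared libraries alone it was -0.46 (edgeR, adjusted p = 0.00682).

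Under shTRAX AAV the R6/2 level of miR-22-5p was 58.1% of the WT level, a log2 difference of -0.78 ± 0.23 (edgeR, adjusted p = 0.0475). Leaving out R6/2 shTRAX replicate 3 reduced this difference to -0.52, which passed the test (edgeR, adjusted p = 0.00905), whereas leaving out any 1 of the 9 libraries of the other groups took it past the threshold, with an adjusted p of up to 0.122. The call was also lost with the replicate number as a block (-0.81, edgeR, adjusted p = 0.0583), with upper quartile scaling (0.0949), with no filter (0.0707) and with only the 6 compared libraries (0.248). Averaged over both viruses it was 64.9%, a log2 difference of -0.62 ± 0.16 (edgeR, adjusted p = 0.0186), and -0.48 without R6/2 shTRAX replicate 3 (edgeR, adjusted p = 0.000548). The averaged call was lost without R6/2 control replicate 2 (edgeR, adjusted p = 0.0568), R6/2 control replicate 3 (0.055) or WT control replicate 3 (0.0539).

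**Figure D2:**
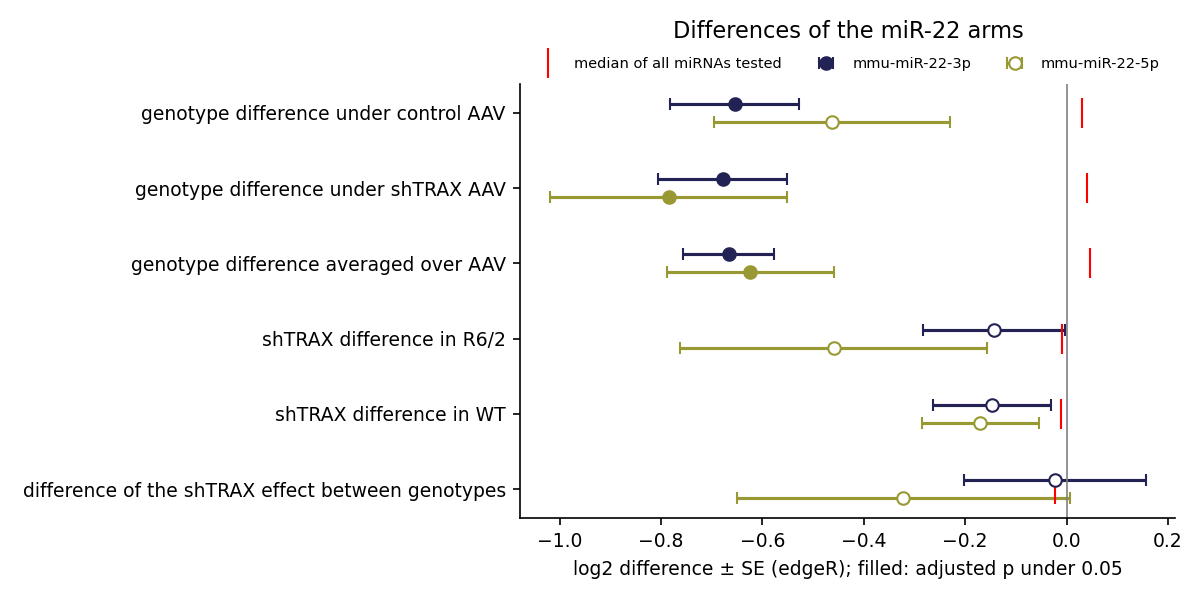
Log2 differences of both miR-22 strands in the 6 comparisons, with bars of 1 SE from edgeR; filled points have an adjusted p under 0.05 and red ticks mark the median of all microRNAs tested. miR-22-3p lies between -0.68 and -0.65 in the genotype comparisons and between -0.15 and -0.02 in the others, none of which passed the test.

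**Figure D3:**
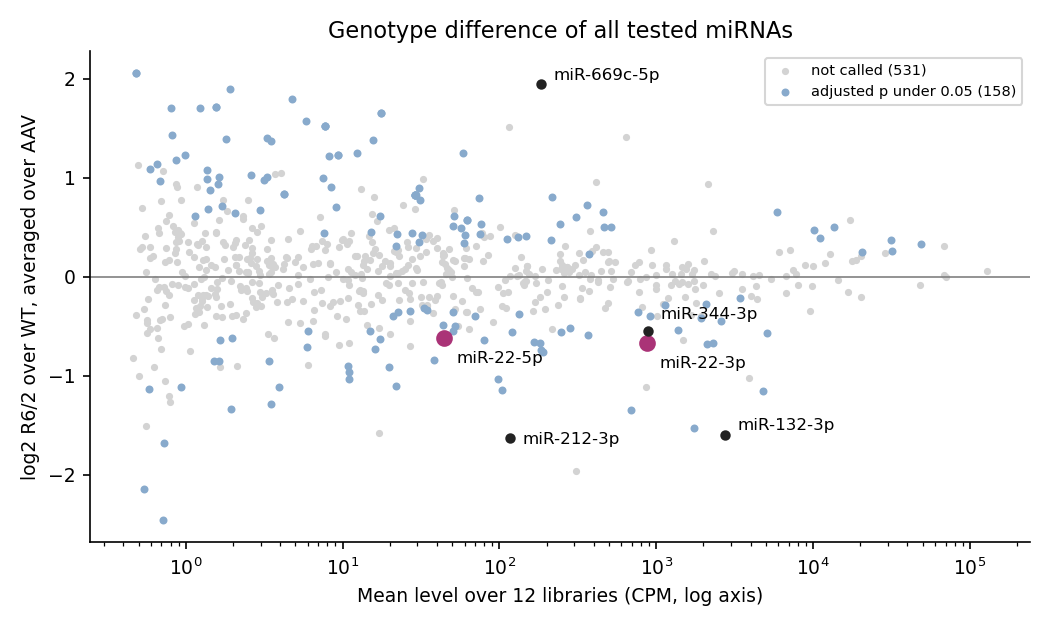
Genotype difference averaged over both viruses (log2 R6/2 over WT) of 689 microRNAs against their mean level on a log axis; blue points have an adjusted p under 0.05, purple points are the miR-22 strands and black points are other named microRNAs. miR-22-3p, at -0.67, and miR-22-5p, at -0.62, lie among the lower called microRNAs and above miR-132-3p at -1.59 and miR-212-3p at -1.63.

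No change of miR-22 was called between shTRAX and control AAV in either genotype. In R6/2 mice the shTRAX level of miR-22-3p was 90.6% of the control level, a log2 difference of -0.14 ± 0.14 (edgeR, unadjusted p = 0.345, adjusted p = 0.561). With single R6/2 libraries left out this difference ran from -0.20 to -0.057. In WT mice the shTRAX level was 90.3% of the control level, a log2 difference of -0.15 ± 0.12 (edgeR, unadjusted p = 0.245, adjusted p = 0.791). Exact two-sided permutation tests on these levels gave p = 0.3 in R6/2 and p = 0.4 in WT mice.

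The WT value rested on 1 library. WT shTRAX replicate 1 had the highest miR-22-3p of all 12, and without it the difference was -0.28 (edgeR, adjusted p = 0.0435), in a fit that called 57 microRNAs in place of 1.

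miR-22-5p stood at 72.7% of the control level in R6/2 mice given shTRAX, a log2 difference of -0.46 ± 0.30 (edgeR, adjusted p = 0.490), and this became -0.19 without R6/2 shTRAX replicate 3 (edgeR, adjusted p = 0.402). In WT mice it stood at 88.9%, a log2 difference of -0.17 ± 0.12 (edgeR, adjusted p = 0.741). These comparisons had few calls in any microRNA: edgeR called 0 of 651 in R6/2 mice (0%; 68 at an unadjusted p under 0.05, and 13 called by DESeq2) and 1 of 665 in WT mice (0.15%; 50 and 4), which was miR-496a-3p at 1.20 ± 0.12 (edgeR, adjusted p = 0.0090).

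In the authors' deposited table of signed fold changes, shTRAX over control, miR-22-3p was at -1.13 in R6/2 mice (their adjusted p = 0.926) and -1.09 in WT mice (0.994). The authors' deposited table gave miR-22-5p at -1.40 (their adjusted p = 0.779) and -1.11 (0.994), where a minus sign marks a lower level under shTRAX.

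The effect of shTRAX was not shown to differ between genotypes for either strand. The interaction, the log2 difference in R6/2 minus that in WT, was -0.02 ± 0.18 for miR-22-3p (edgeR, adjusted p = 0.952), which was the median of all 689 microRNAs. For miR-22-5p it was -0.32 ± 0.33 (edgeR, adjusted p = 0.577). With single libraries left out the miR-22-5p interaction ran from -0.53 to -0.07, the latter without R6/2 shTRAX replicate 3. Across all microRNAs edgeR called 0 interactions (0%), with 61 at an unadjusted p under 0.05 and 2 called by DESeq2. The genotype and shTRAX differences share groups, so they are not separate evidence.

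The 3p strand held nearly all reads of the hairpin in every library. The 5p strand made up 4.71%, 4.78% and 4.92% of the hairpin's counts in WT control, and 4.54%, 4.77% and 4.92% in WT shTRAX. It made up 5.77%, 4.94% and 5.63% in R6/2 control. In R6/2 shTRAX it made up 5.08%, 4.90% and 2.99%.

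R6/2 shTRAX replicate 3 was the low one: its exact 95% binomial interval, 2.62% to 3.40%, lay below those of the other 11 libraries, whereas the interval of R6/2 control replicate 1, the highest, was 5.34% to 6.22%. Such intervals cover counting error only. Expressed the other way, there were 16.3 to 21.03 reads of miR-22-3p for each read of miR-22-5p in 11 libraries, and 32.4 in R6/2 shTRAX replicate 3. Among 215 hairpins with both strands measured, miR-22 had the 41st lowest ratio of 5p to 3p, with a mean log2 ratio of -4.32 against a median of 0.02.

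**Figure D4:**
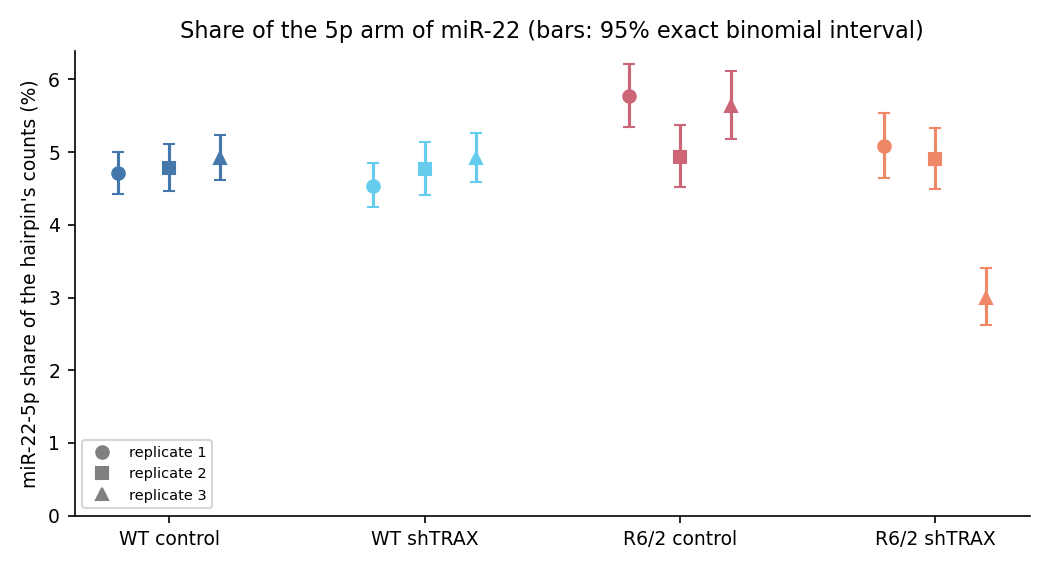
Share of the 5p strand in the counts of the miR-22 hairpin in each library, in percent on an axis from 0; bars are exact 95% binomial intervals, which cover counting error only. The other 11 libraries lie between 4.54% and 5.77%, above R6/2 shTRAX replicate 3 at 2.99%.

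The strand ratio of miR-22 did not pass the test in any comparison (limma on the log2 ratio of 5p to 3p over 215 hairpins). The genotype difference of the log2 ratio was 0.19 ± 0.21 under control AAV (limma, adjusted p = 0.765), -0.18 ± 0.21 under shTRAX AAV (adjusted p = 0.597) and 0.01 ± 0.15 in the average (adjusted p = 0.990), the last being the median of all hairpins. Under control AAV all R6/2 ratios were above all WT ratios, as they were for 23.7% of hairpins. The shTRAX difference was -0.38 ± 0.21 in R6/2 (limma, adjusted p = 0.365) and -0.02 ± 0.21 in WT mice (adjusted p = 0.987), and the interaction was -0.37 ± 0.30 (adjusted p = 0.611).

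R6/2 shTRAX replicate 3 set the size of those values. Without it the shTRAX difference of the log2 ratio in R6/2 mice was -0.13 (limma, adjusted p = 0.849), the interaction was -0.11, and the genotype difference under shTRAX AAV changed sign to 0.08. In that library the log2 ratio was 0.77 below the mean of the other 2 of its group, which was the 56th lowest such difference of 215 hairpins. The strands differ in GC content, 40.9% for 5p and 45.5% for 3p, and the GC trend fitted in that library was -0.40 on the log2 scale at the GC content of the 5p strand and -0.14 at that of the 3p strand. After removal of such trends the shTRAX difference of the ratio in R6/2 mice was -0.26 and the interaction -0.22. With the same correction of the levels, the averaged genotype difference was -0.63 for miR-22-3p (edgeR, adjusted p = 0.000183) and -0.59 for miR-22-5p (0.00305).

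Across all hairpins limma called the ratio of 0 under control AAV (0%; 22 at an unadjusted p under 0.05), 0 under shTRAX AAV (0%; 45) and 5 in the genotype average (2.33%), those of miR-127, miR-325, miR-376b, miR-495 and miR-543. It called 0 for shTRAX in R6/2 mice (0%; 20), 0 for shTRAX in WT mice (0%; 6) and 0 for the interaction (0%; 14).

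miR-22-3p was next set beside 8 other microRNAs reported as lower in the striatum of Huntington mouse models. The list was drawn up from general knowledge with earlier results of these data known, so its shares and medians are descriptions only. Of the 9 with miR-22-3p included, 3 were called lower in R6/2 under either virus and in the average, and none was called higher. Over all microRNAs tested, 3.34%, 5.81% and 9.43% were called lower in these comparisons. The 3 called on the list were miR-22-3p, miR-132-3p and miR-344-3p, and the same 3 had all R6/2 libraries below all WT libraries, as had 4.93% of all microRNAs. Without miR-22-3p, 2 of 8 were called lower, with a median log2 difference of -0.35 under control AAV and -0.30 under shTRAX AAV, against 0.03 and 0.04 over all microRNAs tested.

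miR-132-3p, an activity-induced microRNA of neurons that depends on CREB, fell furthest of the list. Its WT control libraries held 4357, 4939 and 4150 CPM and its R6/2 control libraries 1534, 1280 and 1290 CPM. The averaged log2 difference was -1.59 (edgeR, adjusted p = 1.05e-05). miR-344-3p, a microRNA expressed in rodent brain, fell by 0.55 ± 0.093 on the log2 scale (edgeR, adjusted p = 0.0018).

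The remaining 6 did not pass the test in the average, at log2 differences of -0.35 for miR-138-5p, -0.32 for miR-222-3p, -0.28 for miR-674-3p, -0.20 for miR-218-5p, -0.01 for miR-128-3p and 0.21 for miR-29c-3p (edgeR, adjusted p from 0.0513 to 0.956). miR-138-5p is a neuronal microRNA known for acting on dendritic spines. miR-128-3p is a brain-enriched microRNA of neurons.

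miR-22 shares its stretch of chromosome 11 with the pair miR-212 and miR-132, which lie 290237 and 289968 bases before it. Mir3971, 87618 bases after it, had 10 counts in all and was not tested. The 4 strands of the pair were all called lower in R6/2 in the average, as were 9.43% of all microRNAs tested. They come from neighbouring hairpins, so they are not 4 separate observations. Their averaged log2 differences were -1.63 for miR-212-3p, -1.59 for miR-132-3p, -1.35 for miR-132-5p and -1.15 for miR-212-5p (edgeR, adjusted p from 5.45e-07 to 0.000701). Each of these was a larger fall than the -0.67 of miR-22-3p, although the difference between them was not tested.

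**Figure D5:**
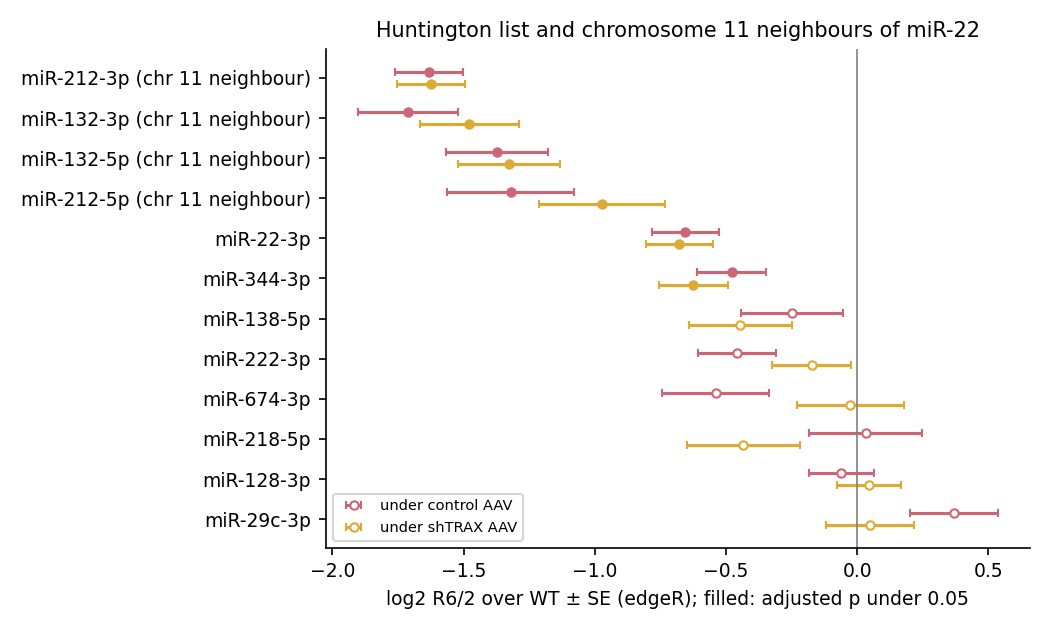
Log2 R6/2 over WT (edgeR, bars of 1 SE) of the listed Huntington microRNAs and of the miR-132 and miR-212 strands, under control AAV (red) and shTRAX AAV (yellow); filled points have an adjusted p under 0.05. miR-22-3p, at -0.65 and -0.68, lies between the 4 strands of miR-132 and miR-212, at -1.71 to -0.97, and miR-344-3p, at -0.48 and -0.63.

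The level of miR-22-3p was correlated with 254 microRNAs, those with a mean of at least 50 CPM and, as a member, miR-22-5p at 44.2 CPM. Of these, miR-344-3p followed miR-22-3p most closely over the 12 libraries (Pearson's r = 0.984 on log2 CPM). The level of miR-344-3p went from a mean of 1053 CPM in WT to 720.1 CPM in R6/2 libraries. The correlation held at 0.939 after the group means were subtracted, and at 0.985 without R6/2 shTRAX replicate 3. The next were miR-543-3p of the imprinted Dlk1-Dio3 cluster (r = 0.969), miR-212-3p (0.965), miR-221-3p (0.952) and the neuronal miR-124-3p (0.946).

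After subtraction of group means these 4 stood at 0.778, 0.595, 0.425 and 0.952. In R6/2 shTRAX replicate 3, miR-22-3p had the lowest level of its group and miR-221-3p the highest, 1619 CPM. For these 4, correlations after subtraction of group means were not computed without that library. Without it the plain correlations were 0.967, 0.973, 0.972 and 0.938. Since miR-22-3p separates the genotypes, its closest correlates were bound largely to share its direction, and as a description their averaged log2 differences were -0.55, -0.50, -1.63, -0.68 and -0.56 in the same order. At the opposite end were miR-669c-5p, from the large cluster in an intron of Sfmbt2 (r = -0.936; a mean of 76.1 CPM in WT and 293 in R6/2 libraries), and miR-672-5p (-0.925; 126 and 167 CPM).

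The other strand of the same hairpin, miR-22-5p, came only at rank 16 in likeness to miR-22-3p, with r = 0.873, which was 0.955 without R6/2 shTRAX replicate 3. The microRNAs most like miR-22-5p were miR-138-5p (r = 0.975), miR-488-3p (0.941) and miR-381-3p (0.936). These fell to 0.929, 0.856 and 0.863 without R6/2 shTRAX replicate 3, in which miR-138-5p also had its lowest level, 4959 CPM. All 3 were then below the 0.955 between the strands, so this order rested on that library. All of these correlations describe 12 libraries that share their preparation and scaling.

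Markers of other cell types were measured in the same libraries. In the genotype average 9.43% of all microRNAs tested were called lower and 13.5% higher, against which the counts below stand. The WT and R6/2 ranges of the summed levels overlapped in every list, for vessels only through R6/2 shTRAX replicate 3. The 6 markers of microglia and blood-derived cells summed to 7100 to 28355 CPM in WT and 4573 to 14486 CPM in R6/2 libraries, and 2 of 6 were called lower in R6/2. The 2 were miR-142a-3p, a marker of blood-lineage cells (log2 difference -1.53, edgeR, adjusted p = 0.0282), and miR-21a-5p, which is raised in reactive glia (-1.16, adjusted p = 0.017). The averaged log2 differences of all 6 were below 0, with a median of -1.14 against 0.05 over all microRNAs tested. The largest fall, of miR-155-5p, was not called (-1.96, edgeR, adjusted p = 0.0599). Over the 12 libraries that sum and the level of miR-22-3p had a Pearson's r of 0.713, the highest in size of the 7 marker lists, ahead of 0.701 for muscle and -0.665 for vessels. The 12 points share their genotype difference and scaling. By replicate the sum was 10415, 16249 and 22993 CPM in WT control, 28355, 10536 and 7100 in WT shTRAX, 5861, 8959 and 14486 in R6/2 control, and 4573, 6121 and 4859 in R6/2 shTRAX.

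Of 9 neuronal markers, summed at 233276 to 302751 CPM in WT and 230069 to 307349 CPM in R6/2 libraries, miR-124-3p was called lower. Of 6 vessel markers, at 29458 to 34673 and 31789 to 39218 CPM, 3 were called higher in R6/2, namely miR-126a-3p, miR-195a-5p and miR-497a-5p. None of 4 oligodendrocyte markers was called, at 8844 to 10594 and 6041 to 10859 CPM, nor any of 4 erythroid ones, at 158 to 245 and 115 to 250 CPM. Of 9 markers of choroid plexus and ependyma, at 1882 to 5674 and 1795 to 8303 CPM, 1 was called higher, miR-1264-5p. Of 4 muscle markers, at 1110 to 1537 and 907 to 1239 CPM, miR-133a-3p, miR-133b-3p and miR-206-3p were called lower. Taken singly, these 3 muscle markers had all R6/2 libraries below all WT libraries, as had 4.93% of all microRNAs tested. For miR-126a-3p, miR-195a-5p and miR-1264-5p all R6/2 libraries were above all WT libraries. The share of all microRNAs with that separation was not computed, so these 3 cannot be set against it. For miR-1264-5p the gap was small, from 2.93 CPM in WT to 3.02 CPM in R6/2 libraries. The ranges of the other called markers overlapped. R6/2 shTRAX replicate 3 gave the lowest R6/2 sums of vessels, neurons, oligodendrocytes and muscle. Without it the lowest were 35829, 269993, 9897 and 1084 CPM in that order. No marker was at 0 in any library, and the part of these cell types in the miR-22 difference was not tested.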

How the data were processed

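Small RNA of 12 striatal libraries, 3 in each of 4 groups, was analysed. Per the labels, the library kit adds molecular identifiers, and RNA came from TRIzol or a column kit without assignment to samples. The submitters' processing notes name bcl2fastq 2.20, Trimmomatic and the genome GRCm38. The sources used here give no aligner, no counter, no test by the authors and no statement on whether the identifiers were collapsed. The authors deposited counts, headed as raw reads per the file headers, which were tested, and RPM values, within 0.118 of counts per column total. Their deposited p-value columns and signed fold changes (a score, in which a fall is the negative of the inverse ratio) were only quoted.

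Of 2059 pairs of mature microRNA and precursor, each of 1915 names was represented by its highest row (by mean); 81 names had several rows, but not miR-22. The count test was edgeR 4.0.16 under R 4.3.3 (filterByExpr with a minimum count of 10, TMM, quasi-likelihood). Genotype and interaction terms came from all 12 libraries, and shTRAX differences from the 6 of one genotype. The log2 ratio of 5p to 3p (0.5 added to each) was tested with limma 3.58.1, and p-values were adjusted by Benjamini-Hochberg over all features at a threshold of 0.05. Exact permutation tests went through every arrangement of the libraries, and exact binomial intervals used scipy 1.17.1. On simulated counts, only the averaged genotype difference of edgeR and of the limma strand ratio was checked, without a library that had a GC trend. DESeq2 1.42.0, other scalings, filters, a replicate block, GC offsets (GC content was found for 564 of 689 microRNAs) and leaving out each library were alternatives. Chi-square per degree of freedom between replicates was 30.1 to 1912, more than counting error gives, so no 2 were treated as one library.

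Named microRNAs were the members, the 9 listed Huntington microRNAs, seed mates, neighbours within 500000 bases, the 5 highest and 2 lowest correlates of miR-22-3p, the 3 highest of miR-22-5p, and, chosen after their values were seen, features in call lists of 5 or fewer. The members and lists were chosen with earlier results of these data known. Sequences are from RefSeq, and the host gene is from GENCODE M21.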

Additional observations from a re-analysis of the deposited data

How the results depend on the processing

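The lower level of miR-22-3p in R6/2 passed the test in 24 of 24 alternatives under control AAV (log2 difference -0.74 to -0.55), in 23 of 24 under shTRAX AAV and in 23 of 23 in the average (-0.76 to -0.57). The exception was the fit of only the 6 compared libraries under shTRAX AAV, at -0.69 (adjusted p = 0.165), which called 2 microRNAs in place of 95. miR-22-5p was less stable. Under shTRAX AAV its call was lost with upper quartile scaling (-0.68, adjusted p = 0.0949), no filter (-0.82, 0.0707), the replicate block (-0.81, 0.0583) and only the 6 libraries (-0.79, 0.248). In the average it was lost with upper quartile scaling (-0.52, 0.0612). The cause of these losses was not tested. Under control AAV the call of miR-22-5p was gained with only the 6 libraries (-0.46, 0.00682), and also without R6/2 shTRAX replicate 3 (-0.45, 0.00708). With single libraries left out, miR-22-5p ran from -0.53 to -0.38 under control AAV, -0.96 to -0.52 under shTRAX AAV and -0.70 to -0.48 in the average. The shTRAX difference of miR-22-3p in WT mice ran from -0.28 to -0.080 and its interaction from -0.12 to 0.042. The log2 strand ratio ran from -0.32 to 0.079 for genotype under shTRAX AAV, -0.065 to 0.13 in the average and -0.048 to 0.013 for shTRAX in WT mice. The interaction of miR-22-3p, near 0, changed sign with a minimum count of 50 (0.025), GC offsets (0.059) and GC offsets with the replicate block (0.065). shTRAX in R6/2 mice gave no call of either strand in 18 alternatives each, nor did the interaction in 23 or the strand ratio in 15 per comparison.

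Replicate numbers did not pair the libraries: same-numbered deviations correlated at -0.32 to 0.28, and 8 of 24 comparisons were highest with the same number. With the block, 59, 59 and 127 microRNAs were called in the genotype comparisons (under control AAV, under shTRAX AAV, averaged), and 0, 1 and 0 for shTRAX in R6/2, in WT and the interaction. Counts of calls moved by over 1.5 times as follows. Under control AAV, 73 became 46 with no filter, 232 with only the 6 libraries, 40 or 48 without R6/2 control replicate 2 or 3, and 44 to 45 without any WT control. Under shTRAX AAV, 95 became 59 with the block and 38 to 51 without 1 WT shTRAX library. For shTRAX in R6/2, 0 became 1 with all 12 libraries in the fit, 4 when R6/2 shTRAX replicate 3 was left out and 3 when R6/2 control replicate 2 was. For shTRAX in WT, 1 became 4 with no filter, 2 with a minimum count of 50, 0 with all 12 libraries, 0 without any 1 control, and 57, 0 and 2 without shTRAX replicate 1, 2 or 3. The median of all microRNAs in the genotype comparisons was 0.03 to 0.05 with TMM, 0.13 to 0.14 with upper quartile and -0.07 to -0.04 with total count scaling. Counting error limits miR-22-5p more than miR-22-3p.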
